A study of Homo sapiens with 12 samples.

Results

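PAX6, RAX, SIX3, SIX6, LHX2, LHX9, OTX2 and EMX2 are transcription factors of the eye field and the forebrain, and their RNA was followed here in human embryoid bodies with and without knockdown of METTL14. They are 8 of the 65969 gene identifiers in the deposited count table. The list was drawn up because several of them were higher with knockdown in the H1 line. The difference of these 8 genes between H1 knockdown and H1 SCR is therefore given as a description, without a test. All 8 passed the filter on low counts that left 24898 genes for testing.

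The samples were embryoid bodies, which are floating clumps of differentiating stem cells, grown from H1 or MEL1, both of them established human embryonic stem cell lines. Each line had been transduced with a lentiviral vector that expresses a short hairpin RNA when doxycycline is given, and selected with puromycin. The hairpin was a control (SCR) or 1 of 3 against METTL14 (KD1, KD2 and KD3); METTL14 partners METTL3 in the enzyme that adds the m6A mark to RNA. All groups, SCR included, were seeded at 500 cells per microwell and received doxycycline at 2 µg/ml until harvest at day 10. H1 had 2 libraries of each of its 4 hairpin groups. In MEL1 there was 1 SCR library, 2 KD1 libraries and 1 KD2 library. The labels do not say whether libraries of a group came from separate cultures, so p-values measure the spread between these libraries, which may be technical. They also do not say whether the transduced lines were clones.

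Estimated counts summed to between 36609628 and 43508287 in 11 libraries and to 15963241 in the MEL1 SCR library. METTL14 was lower in every knockdown library than in the SCR libraries of its line, at 8.90 to 17.7 CPM (estimated counts brought to a common library size) against 29.8 and 43.8 CPM in H1, and at 5.94 to 8.95 against 49.9 CPM in MEL1. The 2 H1 SCR libraries differed from each other in how far a gene's deviation from the mean of its line followed the GC content of its transcript, with a rank correlation over 12103 genes of 0.258 in replicate 1 and -0.477 in replicate 2; the H1 knockdown libraries ran from -0.563 to 0.607. In bulk RNA, fewer cells of a type and less RNA per cell cannot be told apart, and this holds for each level below.

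The eye field is the patch of the anterior neural plate from which both retinas form. OTX2 makes anterior neural tissue competent for it, and RAX, PAX6, SIX3, LHX2 and SIX6 are then expressed together as a network of homeodomain factors that sustain one another. The same genes also act outside the eye: SIX3 and LHX2 in the forebrain, PAX6 and EMX2 in dorsal telencephalic progenitors, LHX9 in the diencephalon and cortex, and OTX2 in the pluripotent epiblast.

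RefSeq promoter windows (GRCh38.p14) were at hand for 7 of the 8 genes, with 17 windows in all. The 250 bases before the start are shown for 3 of them that lie outside annotated exons, because these genes mark the extremes of the results below: PAX6 and RAX were abundant in H1 and nearly absent in MEL1, whereas OTX2 was abundant in both lines. The PAX6 window, chr11:31806926-31807175, is that of an internal start and lies inside the gene (chr11:31784779-31818062). Whether that start was used in these samples was not tested. The window at the 5′ end of PAX6, chr11:31817962-31818211, overlaps an annotated exon and is not shown. The RAX window is chr18:59273455-59273704 and the OTX2 window is chr14:56810480-56810729. All are on the minus strand and run 5′ to 3′. Capitals mark CCAAT, the box bound by NF-Y, or its reverse complement ATTGG.
PAX6: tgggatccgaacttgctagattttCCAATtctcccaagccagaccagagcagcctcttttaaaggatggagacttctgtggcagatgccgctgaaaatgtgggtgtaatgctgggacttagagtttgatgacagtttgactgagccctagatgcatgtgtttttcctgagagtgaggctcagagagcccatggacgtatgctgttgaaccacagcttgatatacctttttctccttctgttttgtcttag
RAX: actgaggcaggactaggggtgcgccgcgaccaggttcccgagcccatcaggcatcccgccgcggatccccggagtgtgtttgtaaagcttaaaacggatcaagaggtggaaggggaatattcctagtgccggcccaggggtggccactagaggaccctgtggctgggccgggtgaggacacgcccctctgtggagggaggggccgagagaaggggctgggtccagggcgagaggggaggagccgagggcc
OTX2: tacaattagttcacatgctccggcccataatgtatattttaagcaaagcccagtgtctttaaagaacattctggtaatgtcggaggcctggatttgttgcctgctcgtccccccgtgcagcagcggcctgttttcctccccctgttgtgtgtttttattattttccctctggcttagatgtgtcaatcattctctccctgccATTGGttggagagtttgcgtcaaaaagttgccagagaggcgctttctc
CCAAT was found on either strand in 7 of the 17 windows, against 32.0% of all 35116 windows cut to the same length. TAATTA, a core motif of paired-type and LIM homeodomain factors that reads the same on both strands, was in 1 of the 17, that of EMX2, against 4.35% of all windows. GGATTA, the core motif of OTX factors, was in 0 of the 17 on either strand, against 5.62%. In these 17 windows no match of one motif overlaps that of another, and a match describes letters in the window only.

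**Figure D1:**
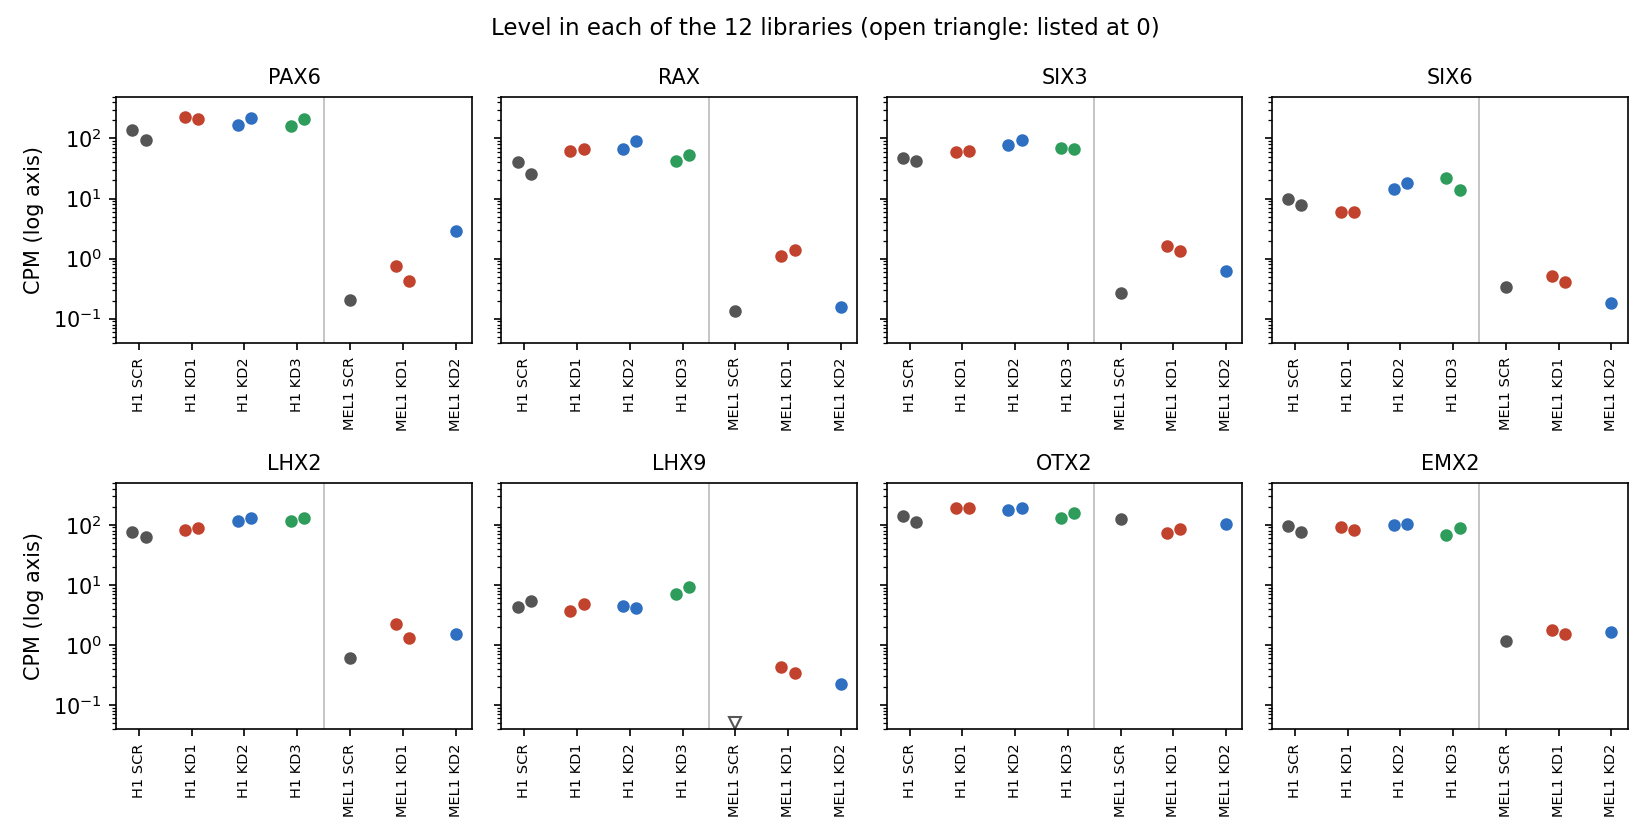
CPM on a log axis (vertical) in each of the 12 libraries, grouped by line and hairpin (horizontal), with 1 panel per gene and 1 point per library. All 8 genes were present in H1, whereas in MEL1 OTX2 stayed at 73.0 to 125 CPM and no other gene passed 2.92 CPM; LHX9 was listed at 0 in MEL1 SCR.

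In the H1 control aggregates all 8 genes were expressed. Per kilobase of the longest annotated transcript, OTX2 had the highest level in H1 SCR, at 42.0 ± 6.63 CPM per kb (SD, n = 2). EMX2 followed at 29.7 ± 4.98 and LHX2 at 27.0 ± 3.30 CPM per kb, and these neighbours did not differ beyond their spread. SIX3 at 17.8 ± 1.44 and PAX6 at 16.1 ± 4.17 CPM per kb did not differ beyond it either. RAX came next at 10.2 ± 3.22, then SIX6 at 3.16 ± 0.509 and LHX9 at 0.612 ± 0.0938 CPM per kb. SIX6 and LHX9 were thus the scarce members of the list in this line. The order of the others depends on the transcript length taken. Without division by length, PAX6 averaged 117 CPM in H1 SCR, above EMX2 at 86.0, LHX2 at 69.0 and SIX3 at 44.9 CPM.

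PAX6, the paired-domain regulator of eye and cortex development, was at 139 and 95.8 CPM in the H1 SCR libraries. It was at 224 and 213 CPM with KD1, 169 and 220 CPM with KD2 and 159 and 215 CPM with KD3. All 6 knockdown libraries lay above both controls, and the log2 fold change of the mean of the hairpins was 0.77 (SE 0.19). RAX, the retina and anterior neural fold homeobox gene, stood at 40.0 and 25.4 CPM in SCR. Its knockdown libraries had 61.9 and 67.5 CPM (KD1), 66.3 and 91.6 CPM (KD2) and 42.4 and 52.3 CPM (KD3). The groups did not overlap, although the lower KD3 library was close to the higher control, and the log2 fold change was 0.93.

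SIX3, which represses WNT signalling in the anterior neural plate, was at 47.4 and 42.3 CPM in H1 SCR. It reached 59.0 and 62.3 CPM with KD1, 78.7 and 92.6 CPM with KD2 and 69.6 and 66.6 CPM with KD3, a log2 fold change of 0.66 with no overlap between the groups. LHX2, the LIM homeodomain factor needed to carry the eye field forward to an optic cup, went from 74.9 and 63.0 CPM in SCR to 80.2 and 89.95 CPM with KD1, 117 and 130 CPM with KD2 and 115 and 128 CPM with KD3. Its groups did not overlap either (log2 fold change 0.65), and the KD1 libraries were the nearest to the controls. PAX6, RAX, SIX3 and LHX2 are therefore the 4 of 8 genes with all knockdown libraries above both controls; among all genes tested 8.66% were so placed, and since this contrast chose the genes nothing is read from the difference.

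OTX2 was at 140 and 112 CPM in H1 SCR, at 190 and 187 CPM with KD1, at 174 and 193 CPM with KD2 and at 131 and 158 CPM with KD3. Only 1 knockdown library, of KD3, fell within the range of the controls; the log2 fold change was 0.44. EMX2, a patterning factor of the dorsal telencephalon, had 96.2 and 75.8 CPM in SCR and 68.6 to 104 CPM over the 6 knockdown libraries, with a log2 fold change of 0.04. LHX9, the close relative of LHX2, had 4.28 and 5.32 CPM in SCR. Its level was 3.69 and 4.83 CPM with KD1, 4.39 and 4.17 CPM with KD2 and 7.12 and 9.10 CPM with KD3, so that the KD3 libraries alone lay above both controls. EMX2 therefore did not share the higher level seen for the genes above, nor did LHX9 outside KD3.

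The 2 control libraries were unequal for several of these genes, and this sets how large the differences appear. Without H1 SCR replicate 1 the log2 fold change of PAX6 was 1.07 and that of RAX 1.30, and without H1 SCR replicate 2 they were 0.52 and 0.64. OTX2 went from 0.62 to 0.29 in the same way, LHX2 from 0.79 to 0.53, SIX6 from 0.64 to 0.30 and SIX3 from 0.75 to 0.58. LHX9 moved the other way, from 0.00297 without replicate 1 to 0.31 without replicate 2. EMX2 changed sign between these choices, from 0.23 to -0.12. Of 8 markers of pluripotent cells, 4 were called lower in H1 knockdown and 0 higher, where 4.93% of all genes tested were called lower and 2.23% higher. The summed level of the list was 795 to 884 CPM in SCR. It was 614 to 620 CPM with KD1, 655 to 830 CPM with KD2 and 846 to 890 CPM with KD3, so the KD3 libraries did not lie below the controls. Neural progenitor markers summed to 2998 to 3143 CPM in SCR and 2996 to 3688 CPM with knockdown. This sum leans on LIN28A, the most abundant of the 13 listed genes, with a mean of 1198 CPM over the 12 libraries. Of the 13, 1 was called higher (SOX2, log2 fold change 0.46) and 1 lower (FABP7, -0.72), so the sum does not show a steady level of each gene. The part of either cell type in the levels of the 8 genes was not tested.

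**Figure D2:**
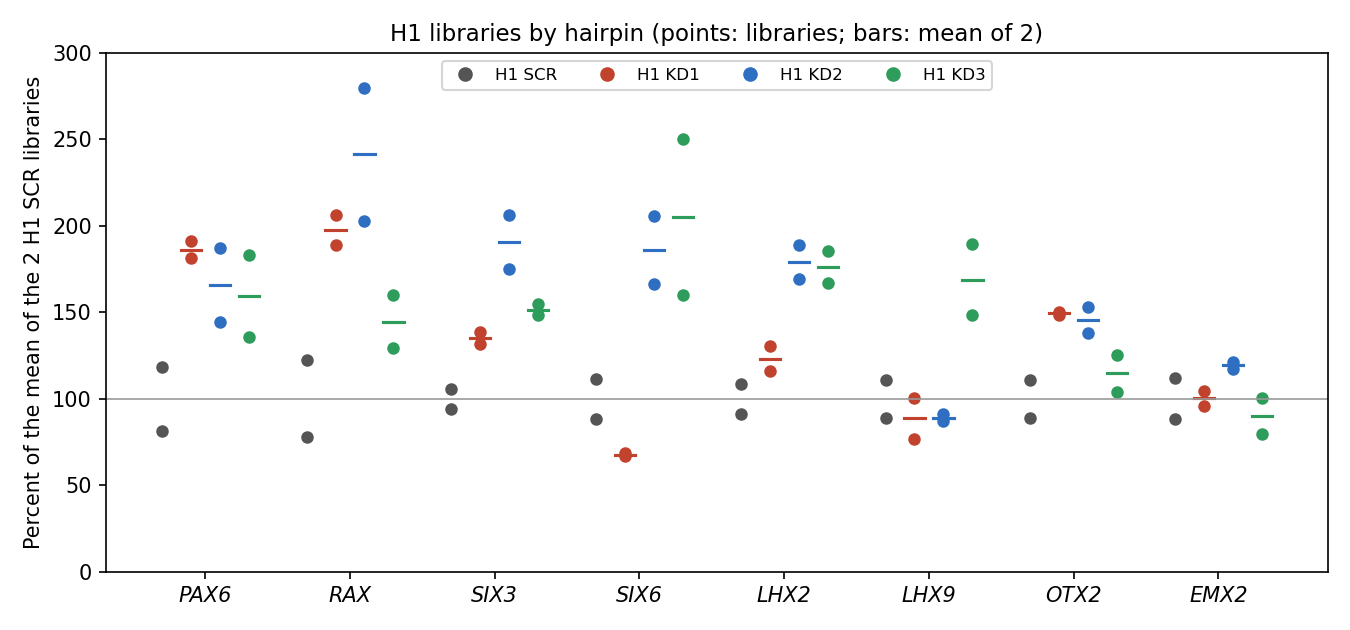
Level in each H1 library as a percent of the mean of the 2 H1 SCR libraries (vertical) for the 8 genes (horizontal), with points for libraries and short bars for the mean of the 2 libraries of a hairpin. SIX6 stands at 66.9% and 68.6% with KD1 against 160% to 250% with KD2 and KD3, while EMX2 runs from 79.8% to 122% over the knockdown libraries.

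The 3 hairpins were compared with each other without the control libraries, a test that is apart from the choice of the list. SIX6, the SIX-family factor of the retina, optic stalk and pituitary, was the 1 of 8 genes that differed (adjusted p = 0.0109, edgeR quasi-likelihood F-test with Benjamini-Hochberg adjustment); 3.54% of all genes tested did. At an unadjusted p under 0.05, where 20.0% of all genes fell, all but PAX6 and EMX2 passed. SIX6 had 9.81 and 7.81 CPM in SCR, 5.89 and 6.05 CPM with KD1, 14.7 and 18.1 CPM with KD2 and 22.0 and 14.1 CPM with KD3. Both KD1 libraries lay below both controls, and all 4 KD2 and KD3 libraries lay above them. KD1 was lower than KD2 by a log2 difference of -1.46 (SE 0.24, adjusted p = 0.0225), where 0.851% of genes were called. The difference from KD3 was -1.60 (SE 0.24, adjusted p = 0.00668), where 4.63% of genes were called. KD2 and KD3 differed by -0.14 (SE 0.23, adjusted p = 0.901), where 1.01% of genes were called. The SIX6 call over the hairpins was lost when either KD1 library was left out (adjusted p = 0.140 without replicate 1 and 0.107 without replicate 2), with log2 differences of -1.40 and -1.47 from KD2.

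For the other genes the spread between hairpins did not pass the same edgeR test, and its adjusted p ran from 0.0673 for LHX9 to 0.779 for PAX6. Against SCR, the log2 fold changes of PAX6 were 0.90, 0.73 and 0.67 with KD1, KD2 and KD3, the most even among the genes that were higher with every hairpin. RAX was at 0.98, 1.27 and 0.53, SIX3 at 0.44, 0.93 and 0.60, LHX2 at 0.30, 0.84 and 0.82, and OTX2 at 0.58, 0.54 and 0.20. These comparisons share the 2 control libraries. METTL14 itself was at 11.1 and 10.99 CPM with KD1, 17.7 and 14.8 CPM with KD2 and 8.90 and 13.5 CPM with KD3, so KD2 was the hairpin that stood highest for METTL14, whereas KD1 stood apart for SIX6. DESeq2 called 4 of 8 genes between hairpins, adding SIX3, LHX2 and LHX9 to SIX6; it called 8.93% of all genes in this comparison.

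In MEL1 the list was nearly silent apart from OTX2. PAX6 was at 0.204 CPM in the SCR library, from 3 estimated counts, at 0.767 and 0.430 CPM with KD1 and at 2.92 CPM with KD2. RAX was at 0.136 CPM in SCR, 1.13 and 1.38 CPM with KD1 and 0.157 CPM with KD2. These genes peaked under different hairpins in MEL1. SIX3 had 0.273 CPM in SCR and 0.632 to 1.64 CPM with knockdown, LHX2 had 0.613 and 1.32 to 2.25 CPM, and EMX2 had 1.16 and 1.49 to 1.74 CPM. SIX6 stayed at 0.180 to 0.512 CPM in all 4 libraries. LHX9 was listed at 0 in SCR, where 3 counts would be 0.204 CPM, and at 0.225 to 0.435 CPM with knockdown.

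OTX2 was at 125 CPM in MEL1 SCR, 73.0 and 84.4 CPM with KD1 and 105 CPM with KD2. All 3 knockdown libraries were thus below the control, the opposite side from most H1 knockdown libraries. Its log2 fold change in MEL1 was -0.46 (SE 0.16, adjusted p = 0.124, edgeR), which did not pass the threshold.

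None of the 8 genes was called between knockdown and SCR in MEL1 by edgeR (0 of 8, against 4.45% of all genes tested, 2.93% higher and 1.51% lower). At an unadjusted p under 0.05 there were 5 (PAX6, SIX3, LHX2, LHX9 and OTX2), against 22.7% of all genes; DESeq2 called 1 higher, PAX6, and 1 lower, OTX2, against 4.50% and 4.10% of all genes. The MEL1 control is 1 library and is assumed to vary like the other groups. All 3 knockdown libraries lay above it for 6 of the 8 genes, which was so for 31.7% of all genes, and below it for 1 of 8, OTX2, which was so for 25.7%. The ratio of knockdown to SCR was 7.23 for PAX6 (exact 95% interval 2.43 to 35.4), 6.13 for RAX (1.65 to 51.4), 4.28 for SIX3 (1.63 to 15.9) and 2.77 for LHX2 (1.43 to 6.14). It was 1.40 for EMX2 (0.852 to 2.45) and 1.04 for SIX6 (0.412 to 3.37), whose intervals include 1; all these intervals cover counting error only and not the spread between libraries. Without the MEL1 KD2 library 2 of the 8 were called higher and 1 lower, while over all genes the calls also rose, to 5.70% higher and 2.74% lower.

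Between the lines, at matched treatments, the fit called all 8 genes lower in MEL1 than in H1 (8 of 8 by edgeR; 49.1% of all genes tested were called, 23.0% higher and 26.2% lower). This fit takes in the H1 knockdown libraries by which the list was chosen, but for every gene except OTX2 the MEL1 SCR level given above also lay far below both H1 SCR levels. Means and SDs here are over all libraries of a line, SCR and every hairpin together. Those of H1 take in KD3, which MEL1 lacks and the fit leaves out. PAX6 averaged 179 ± 46.5 CPM (SD, n = 8) in H1 and 1.08 ± 1.25 CPM (SD, n = 4) in MEL1. Its log2 difference in the fit was -7.89 (SE 0.26, adjusted p = 1.22e-08, edgeR). RAX averaged 55.9 and 0.699 CPM and differed by -7.50, SIX3 by -6.59, LHX2 by -6.24, EMX2 by -5.98 and SIX6 by -4.95. For these 6 genes the lowest H1 library was 11.5 to 39.4 times the highest MEL1 library. For LHX9, whose MEL1 control is at 0, the lowest H1 library was 8.49 times the highest MEL1 library, and no fold is given from the fit. OTX2 was the exception: its MEL1 SCR library, at 125 CPM, lay between the H1 SCR libraries, at 112 and 140 CPM. Its mean was lower in MEL1, at 96.8 ± 23.0 CPM (SD, n = 4), than in H1, at 161 ± 30.3 CPM (SD, n = 8). This lower mean thus came from the knockdown libraries of both lines. Because the H1 ones chose the gene, the OTX2 call in the fit is not read as a difference between the lines.

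**Figure D3:**
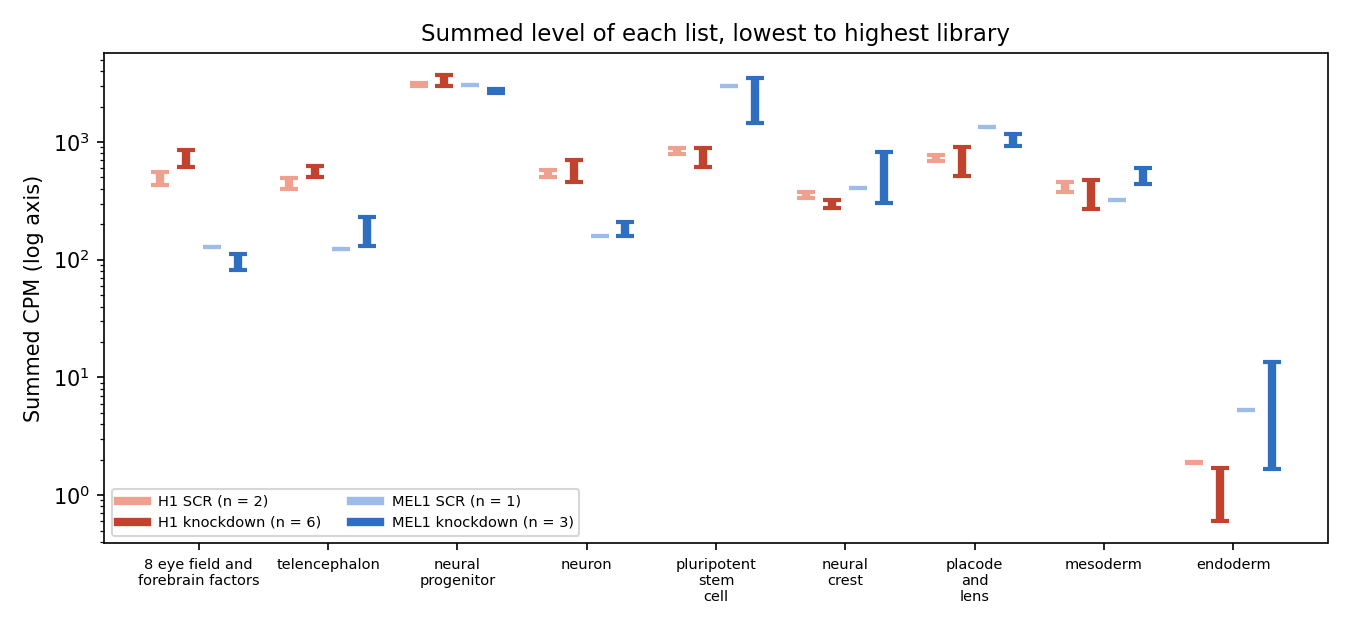
Summed CPM of each gene list on a log axis (vertical), drawn from the lowest to the highest library of H1 SCR, H1 knockdown, MEL1 SCR and MEL1 knockdown (colours) for 9 lists (horizontal). The 8 factors sum to 427 to 854 CPM in H1 and 81.4 to 128 CPM in MEL1, whereas pluripotent stem cell markers sum to 614 to 890 CPM in H1 and 1447 to 3521 CPM in MEL1.

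Other lineage markers differed between the lines as well, in the same fit that called 23.0% of all genes higher in MEL1 and 26.2% lower. Of 8 pluripotency markers, 7 were higher in MEL1 and 0 lower, among them NANOG (log2 difference 3.93) and POU5F1 (3.72), the core factors of the pluripotent state. Neural crest markers were higher for 6 of 8, with FOXD3 at 3.23, and lower for 2; placode and lens markers were higher for 6 of 11 and lower for 1. Of 18 telencephalon genes tested, 9 were lower in MEL1 and 3 higher; FEZF1 was at 55.4 to 125 CPM in H1 and at 3.21 to 5.06 CPM in MEL1. Of 18 optic vesicle genes, 10 were lower and 4 higher. General neural progenitor genes were lower for 12 of 13, yet SOX2 remained at 233 to 428 CPM in MEL1 and 417 to 749 CPM in H1. How far a different make-up of cell types accounts for the levels of the 8 factors was not tested.

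**Figure D4:**
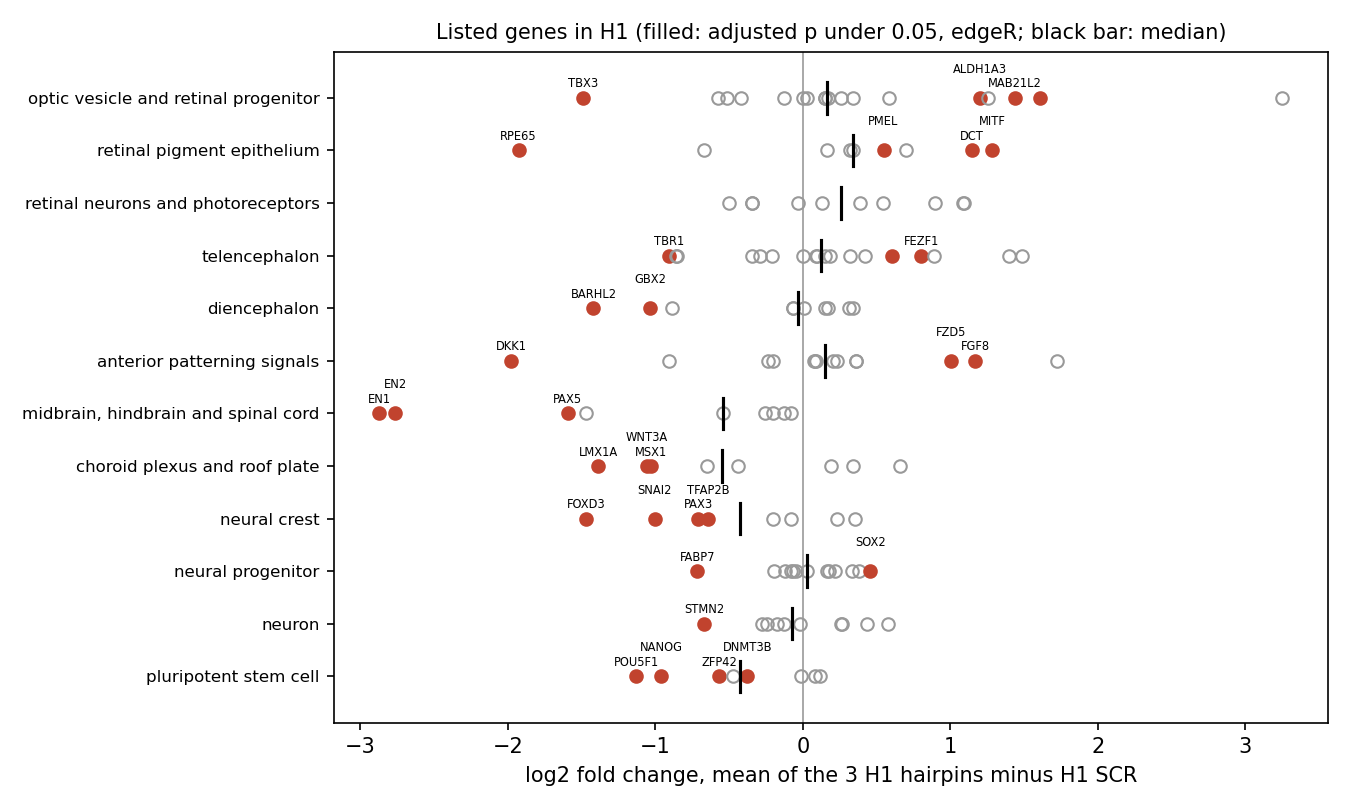
Log2 fold change of the mean of the 3 H1 hairpins against H1 SCR (horizontal) for each tested gene of 12 lists (vertical), with filled points for genes called by edgeR, most of them labelled, and a black bar at the median of a list. Called optic vesicle and pigment epithelium genes lie mostly to the right, as MAB21L2 at 1.44, and called midbrain, roof plate, neural crest and pluripotency genes lie to the left.

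Genes that act around and after the eye field were examined in the same H1 contrast, in which 7.16% of genes were called, 2.23% higher and 4.93% lower. Of 18 optic vesicle and retinal progenitor genes, 3 rose with knockdown and 1 fell, with a median log2 fold change of 0.16 against 0.01 over all genes. MAB21L2, which is needed for growth of the optic cup, was at 11.8 and 9.26 CPM in SCR and at 14.9 to 43.6 CPM with knockdown (log2 difference 1.44, SE 0.19, edgeR adjusted p = 0.00335). ALDH1A3, a retinoic acid synthesising enzyme of the ventral retina, rose by 1.20. The gene that fell, TBX3, averaged 0.552 CPM and is named after its values were seen.

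Among 9 pigment epithelium genes, 3 rose and 1 fell. MITF, the master regulator of pigment cells, went from 0.815 and 1.09 CPM to 1.05 to 3.92 CPM (log2 fold change 1.28, adjusted p = 0.0363, edgeR), with the KD1 libraries, at 1.19 and 1.05 CPM, near the controls. DCT and PMEL, which encode melanosome proteins, rose by 1.14 and 0.55, and RPE65, at a mean of 0.385 CPM, fell by 1.93 on the log2 scale; it is named after its values were seen. MITF, DCT and PMEL are also genes of melanocytes, which arise from the neural crest. Of 8 neural crest markers 4 were called lower (FOXD3, SNAI2, PAX3 and TFAP2B) and 0 higher. SOX10 and NGFR, the 2 with positive log2 fold changes, were at 0.35 and 0.23 and were not called. Which cells the pigment genes came from was not tested. Of 10 genes of retinal neurons and photoreceptors 0 were called by edgeR.

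Of 18 telencephalon genes 2 rose, among them FEZF1 by 0.80, and 1 fell, TBR1, a marker of postmitotic cortical neurons, by 0.91 on the log2 scale. FEZF1, a repressor of the anterior forebrain, was at 75.0 and 55.4 CPM in SCR and at 102 to 125 CPM with knockdown, with no overlap. In the diencephalon list 2 of 10 fell and 0 rose: GBX2, by 1.03, and BARHL2, at a mean of 0.436 CPM, which is named after its values were seen. Midbrain and hindbrain genes fell for 3 of 9 and rose for 0; PAX5, at the midbrain-hindbrain boundary, fell by 1.59, and EN1 and EN2, both under 1 CPM on average, were the others. All 9 had negative fold changes, with a median of -0.55. In the roof plate and choroid plexus list 3 of 8 fell, LMX1A by 1.39, WNT3A by 1.06 and MSX1 by 1.03, and 0 rose.

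Signals that pattern the anterior neural plate split in direction. FZD5, the WNT receptor of the eye field, was at 99.7 and 104 CPM in SCR and at 185 to 225 CPM with knockdown, with no overlap (log2 difference 1.002, SE 0.0962, adjusted p = 0.000615). FGF8, a growth factor of the anterior neural ridge and of the midbrain-hindbrain boundary, rose by 1.17, and DKK1, a secreted WNT antagonist, fell by 1.98. FGF8 was at 13.6 and 12.5 CPM in SCR and 15.4 and 14.3 CPM with KD1, but at 35.2 to 45.5 CPM with KD2 and KD3. As with SIX6, the KD1 libraries stood apart from those of the other hairpins. The remaining 11 of the 14 signals were not called.

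These calls lean on the control libraries: without H1 SCR replicate 2 only 123 of all genes were called, against 1783 with it, and 0 optic vesicle, pigment epithelium and telencephalon genes were called higher. Without H1 SCR replicate 1, 920 genes were called. FZD5, FGF8 and GBX2 were called under all 18 alternatives, MAB21L2 under 17, MITF under 11 and DCT under 10. Between hairpins, 4 of 18 optic vesicle genes differed (ALDH1A3, MAB21L2, VAX1 and EYA2), 7 of 14 anterior signals and 5 of 9 midbrain and hindbrain genes, against the 3.54% of all genes above. ALDH1A3 was highest with KD2, at 35.1 and 36.2 CPM against 10.9 to 17.6 CPM with the other hairpins, whereas MAB21L2 was lowest with KD3.

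Several of the 8 loci carry an antisense or neighbouring transcript. EMX2OS, which runs antisense across the EMX2 start at chr10:117473215-117545068 (GENCODE 29, GRCh38), was at 71.5 to 123 CPM in H1 and 0.477 to 3.18 CPM in MEL1, so that it shared the line difference of EMX2 (chr10:117542444-117549546). In MEL1, EMX2OS was at 0.477 CPM in the 1 SCR library and at 2.38 to 3.18 CPM with knockdown. Its log2 fold change was 2.47, while EMX2 had 0.48. The EMX2OS level in this shallow control rests on few estimated counts, which limits the fold, as for the scarce factors. SIX3-AS1, whose start lies 25 bases from that of SIX3 on the other strand, was at 2.28 and 2.63 CPM in H1 SCR and 2.68 to 6.14 CPM with knockdown, with an adjusted p of 0.202 by edgeR. PAUPAR, which overlaps PAX6 on the other strand, and OTX2-AS1 stayed at or under 1.15 CPM in every library. ELP4, a protein-coding gene, also overlaps PAX6 on the other strand, and DENND1A is the protein-coding neighbour of LHX2. ELP4 and DENND1A were lower in MEL1 by log2 differences of -0.94 and -1.02, far less than PAX6 and LHX2. In H1 knockdown 0 of the 7 matched transcripts were called by edgeR. The largest log2 fold changes were those of SIX2, a neighbour of SIX3 (1.18, SE 0.63), PAUPAR (0.93, SE 0.67) and SIX3-AS1 (0.78, SE 0.34). SIX2 and PAUPAR averaged only 0.617 and 0.484 CPM over the 12 libraries, and ELP4 had the 1 negative fold change, -0.06. The libraries were stranded, but whether counting used strand is not given in the sources used here. Reads of EMX2 and EMX2OS, and of PAX6 with PAUPAR and ELP4, may therefore be divided imperfectly.

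The genes whose pattern over the 12 libraries was most like each factor, after the mean of each line was removed, were found by Pearson correlation of log2 CPM among 14952 genes. PAX6 was closest to IGFBP5 (r = 0.97), MTMR3 and HMGN3-AS1. RAX was closest to SYT17 (r = 0.94), RASSF4 and TERT, and SIX3 to WNK2 (r = 0.92), MAPK12 and LURAP1. SIX6 was closest to OTUD7A (r = 0.93), HRH2 and KCNK12, and LHX2 to PSTPIP1 (r = 0.92), NBL1 and LIG3. Among those nearest to LHX9 were EBF3 (r = 0.92) and GABPB1-IT1. OTX2 was closest to UBAP1L (r = 0.93), CCDC174 and PTGIS, and EMX2 to LTBP2 (r = 0.89), CCDC159 and MARCHF8. The 12 libraries include those of MEL1, where all factors but OTX2 were scarce. Over the 8 H1 libraries alone, r of the nearest 3 ran from 0.82 (MAPK12 with SIX3) to 0.96 (WNK2 with SIX3), and that of IGFBP5 with PAX6 was 0.93. No gene stood among the nearest 3 of more than 1 factor, and the points share libraries and depth, so these are descriptions.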

How the data were processed

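Total RNA of 12 libraries was sequenced from a stranded kit, per the labels' protocols. Estimated counts for each Ensembl gene make up the deposited table; fastp and kallisto are named in the submitters' processing notes without versions, and the annotation, genome build and strand setting are not given in the sources used here. Estimated counts split reads between similar genes. Symbols came from a separate name table, and 41981 identifiers had one. Coordinates and transcript lengths are those of GENCODE 29 on GRCh38.

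Counts were rounded to whole numbers, filtered by filterByExpr over the 7 groups and scaled by TMM. A model of the group means over all 12 libraries was fitted in R 4.3.3 with edgeR 4.0.16 and limma 3.58.1 (quasi-likelihood F-test, robust); p-values were adjusted over 24898 genes by Benjamini-Hochberg, and called means an adjusted value under 0.05. Scripts were tested on simulated data. The 8 genes and the 17 other lists were chosen with earlier results of these data known. From each list up to 4 called genes averaging 1 CPM or more are named, by largest fold change; 2 list genes matched no identifier, and some genes that the rule names are not reported here. The alternatives were scaling by upper quartile or by median of ratios, no filter, DESeq2 1.42.0, removal of a GC and length trend (90.6% of genes had values), H1 by itself, and leaving out each library.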

Additional observations from a re-analysis of the deposited data

Results flagged for a closer look

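OTX2 stood out because its knockdown libraries moved to opposite sides in the lines: all but 1 of the 6 H1 knockdown libraries were above both H1 controls and all 6 above the mean of the controls, while all 3 MEL1 knockdown libraries were below the MEL1 control, with a log2 fold change of -0.46 in MEL1. The difference between the lines was not tested, because the H1 contrast chose the gene. No knockdown library of the 8 genes in H1 lay apart from the other 5 by Dixon's test at the 95% level. That test took the 6 libraries together, so it cannot find a hairpin whose 2 libraries both stand apart, as KD1 did for SIX6. Nothing is concluded from it.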

How the results depend on the processing

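No paired analysis was possible because the labels carry no replicate numbers. The 8 factors were called lower in MEL1 than in H1 under all 18 alternatives that hold both lines. Among these were the KD1 and KD2 groups without SCR. Each of these fits takes in H1 knockdown libraries, by which the genes were chosen. For OTX2 the call rests on the knockdown libraries, and no difference between the lines is read from it. Of the 8, the number that differed between H1 hairpins was 1, and it was 5 with no filter, 4 by DESeq2, 3 with the GC and length trend removed and 0 to 1 leaving out each library. Calls over all genes rose too, from 3.54% to 8.43%, 8.93% and 7.51% under the first 3 of these. In MEL1, 0 were called higher with knockdown; this was 3 with no filter (4.14% of all genes, from 2.93%), 1 by DESeq2 (4.50%) and 0 to 2 leaving out each library, and 0 were called lower, with 1 by DESeq2 and 0 to 1 leaving out each library. Leaving out the MEL1 SCR library gives no MEL1 contrast. In H1, optic vesicle genes called higher numbered 3 (0 to 4 leaving out each library, and up to 4 otherwise) and lower 1 (2 with the trend removed, 2 in H1 libraries by themselves, 0 to 2 leaving out each). Pigment epithelium genes called higher numbered 3 (4 with the trend removed, 0 to 3 leaving out each) and lower 1 (0 by DESeq2, 0 to 1 leaving out each). Telencephalon genes called higher numbered 2 (3 with no filter, 1 with the trend removed, 0 to 2 leaving out each) and lower 1 (2 with no filter, 0 to 1 leaving out each). Midbrain and hindbrain genes called lower numbered 3 (4 with no filter or the trend removed, 1 by DESeq2, 0 to 3 leaving out each). The causes were not tested, beyond fewer libraries in each fit. In MEL1 all 7 scarce factors rest on few counts in the shallow control, 0 to 17 estimated counts, which limits any fold there.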
